A study of Mus musculus with 12 samples.

Results

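The cells of this study were examined here for 9 genes of histone H3 lysine 9 (H3K9) methylation and heterochromatin, Setdb1, Ehmt1, Ehmt2, Suv39h1, Suv39h2, Cbx1, Cbx3, Cbx5 and Trim28, chosen by symbol from the 25759 genes listed for every library. All 9 were listed in all 12 libraries, and all 9 passed the filter on low counts in every comparison. H3K9 methylation marks silent chromatin. Setdb1 and the Suv39h enzymes place the trimethyl mark, the Ehmt1 and Ehmt2 heterodimer (GLP and G9a) places the mono- and dimethyl marks, and the HP1 proteins encoded by Cbx5 (HP1α), Cbx1 (HP1β) and Cbx3 (HP1γ) bind the methylated tail. Trim28 (KAP1) is the corepressor that KRAB zinc finger proteins use to bring Setdb1 to their targets, and in mouse embryonic stem cells (ESCs) this pathway is known for the silencing of endogenous retroviruses. Xist, the RNA that coats and silences the X chromosome, was induced in these cells with doxycycline.

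HATX3 mouse ESCs, a diploidised line that began as haploid ESCs, carry Xist under a promoter that responds to doxycycline. RNA was taken from wild-type (WT) HATX3 cells, numbered 1, 2 and 3, and from ΔCdk8 derivatives, clones 8, 11 and 15, in which CRISPR/Cas9 removed a stretch of Cdk8 with its start codon. Uninduced conditions and 48 h of Xist expression were sampled for each number and clone, and these make up 4 groups of 3 libraries. All groups share the inducible Xist. The study describes the parental cells as polyclonal, while each ΔCdk8 library comes from 1 clone, so that the mutation and the history of a clone cannot be told apart. Nothing says whether the 3 wild-type samples were separate cultures, and p-values then measure only the spread between these samples.

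Library depth was 22170087 to 60798578 reads assigned to genes. The 8 ESC markers (Pou5f1, Nanog and others) were each expressed in every group, with a summed level of 3367 to 7399 TPM over the libraries, of which Dppa5a gave 1651 to 4900. TPM is the authors' length-scaled transcript measure, reads over exon length scaled to a library. Markers of other cell types were low, with a summed level of at most 8.56 TPM for 5 primitive endoderm genes, 36.9 TPM for 4 mesoderm genes, 48.0 TPM for 4 neural genes and 32.3 TPM for 4 fibroblast feeder genes. Some markers varied widely between libraries, with Nanog at 50.2 to 407 TPM and Esrrb at 32.4 to 247 TPM, and the mesoderm sum at 0.862 to 36.2 TPM within uninduced wild-type libraries. The 5 trophoblast markers were the exception, with 32.2 to 124 TPM in uninduced wild-type and 63.4 to 509 TPM in uninduced ΔCdk8 libraries. This came chiefly from the keratin genes Krt8 and Krt18, while Eomes, Elf5 and Cdx2 did not exceed 14.1, 3.22 and 1.41 TPM. Hand1, in the mesoderm list, reached 35.5 TPM. The fibroblast feeder sum was 8.66 to 17.4 TPM in uninduced wild-type and 17.8 to 29.3 TPM in uninduced ΔCdk8 libraries, without overlap. The part of these markers in the differences given below was not tested. In bulk RNA, fewer cells of a type and less RNA per cell cannot be told apart. Cdk8 itself had 64.2, 69.4 and 74.2 TPM in uninduced wild-type cells and 34.4, 56.8 and 85.3 TPM in uninduced clones 8, 11 and 15. Reads over all exons do not check a small deletion at the start codon. The paper reports no detectable Cdk8 protein in these clones by western blot.

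Of the members only Suv39h1 lies on the X chromosome, the chromosome that Xist acts on. In the GRCm38 annotation it spans chrX:8061171-8074760 on the reverse strand, and no other annotated gene overlaps it. The 250 bases before the outermost of its RefSeq starts are shown because it is the member on the X chromosome. They are set beside those of Setdb1 on chromosome 3 and Cbx1 on chromosome 11, a writer and a reader whose uninduced libraries did not overlap between the genotypes. The sequences are from RefSeq (GRCm38.p6), each read 5′ to 3′ along the strand of the gene, from chrX:8074761-8075010 (reverse), chr3:95357203-95357452 (reverse) and chr11:96788885-96789134 (forward). Every CG dinucleotide is in capitals.
Suv39h1: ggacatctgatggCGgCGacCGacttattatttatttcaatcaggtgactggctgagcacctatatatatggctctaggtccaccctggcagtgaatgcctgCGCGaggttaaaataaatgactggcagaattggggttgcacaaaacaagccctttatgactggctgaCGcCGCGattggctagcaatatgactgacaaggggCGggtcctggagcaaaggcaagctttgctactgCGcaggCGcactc
Setdb1: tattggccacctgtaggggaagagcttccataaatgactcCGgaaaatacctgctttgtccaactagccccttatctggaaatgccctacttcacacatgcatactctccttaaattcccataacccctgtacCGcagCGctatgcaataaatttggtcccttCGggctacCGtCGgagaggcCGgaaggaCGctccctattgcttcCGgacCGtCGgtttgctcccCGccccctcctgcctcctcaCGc
Cbx1: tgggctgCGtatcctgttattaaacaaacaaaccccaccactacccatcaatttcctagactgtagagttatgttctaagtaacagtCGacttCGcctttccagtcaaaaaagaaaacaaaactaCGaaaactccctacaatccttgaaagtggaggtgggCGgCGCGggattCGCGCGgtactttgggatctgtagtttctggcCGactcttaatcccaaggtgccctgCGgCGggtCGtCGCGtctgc
The Suv39h1 stretch holds 11 CG dinucleotides, and 35.6% of the 32851 promoters of the same length hold at least as many. The counts were 13 for Setdb1 (31.5% of promoters) and 16 for Cbx1 (25.4%). RefSeq lists a second start of Suv39h1 within the gene, and the 250 bases before it (chrX:8074362-8074611, not printed) hold 25, a count that 10.7% of promoters reach. CG reads the same on both strands and cannot overlap itself. These counts describe the sequence only, and methylation was not measured here.

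The members were expressed at very different levels, compared here in TPM, which is scaled by length. In uninduced wild-type cells Trim28 was the highest at 1590±269 TPM (mean±s.d., n = 3), followed by Cbx3 at 583±8.72 and Cbx1 at 235±4.86. Next came Cbx5 (134±12.9), Ehmt2 (117±5.20) and Setdb1 (104±11.5), whose ranges overlapped from each to the next. Ehmt1 (51.5±5.87) stood below them, and Suv39h2 (28.0±0.35) and Suv39h1 (23.2±7.81) were lowest and overlapped each other. The reads behind these values ran from 738 for Suv39h1 in the library with the fewest to 128981 for Trim28. The spread between wild-type samples was not the same for all members. The coefficient of variation was 1.24% for Suv39h2, 1.5% for Cbx3 and 2.07% for Cbx1, but 33.6% for Suv39h1.

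**Figure D1:**
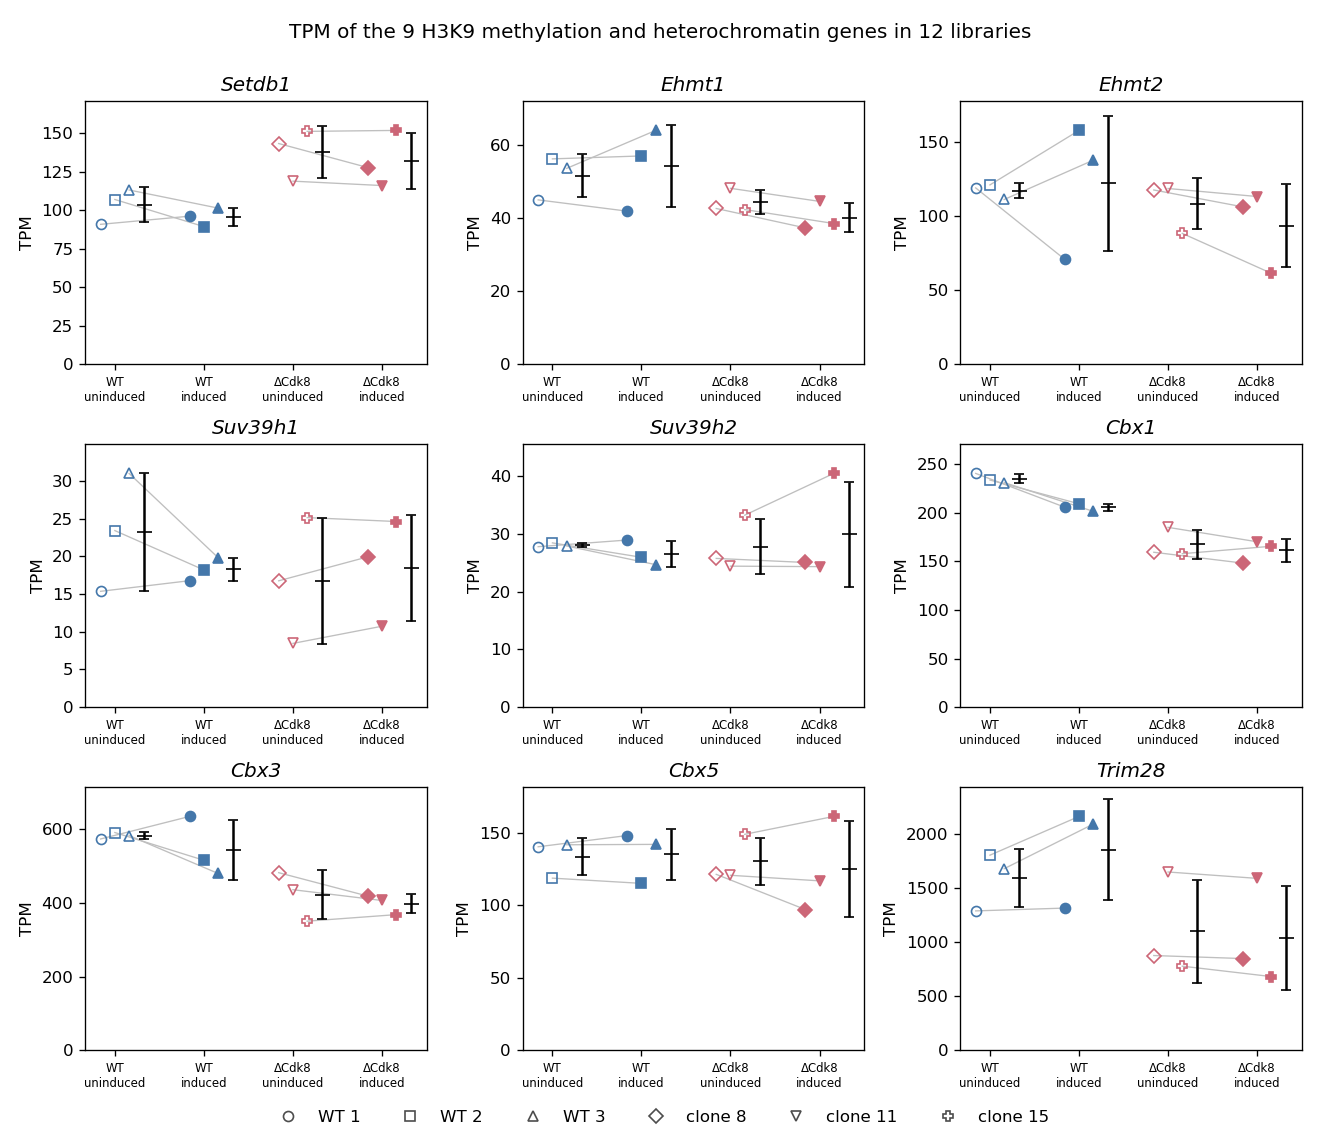
TPM (vertical axes, linear from 0) of each member in wild-type (blue) and ΔCdk8 (red) libraries, uninduced (open) and induced (filled), with symbols for the wild-type number or clone, grey lines joining the libraries of a number or clone, and black bars for mean±s.d. (n = 3). Cbx1 and Cbx3 sit lower and Setdb1 higher in every ΔCdk8 library than in every uninduced wild-type library, and Trim28 is low in clones 8 and 15 but not in clone 11.

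To determine whether Xist induction alters these genes, induced and uninduced libraries were compared within each genotype on read counts with edgeR. A gene passed where its fold change exceeded 2 and its adjusted p was under 0.01. Of the members 0 of 9 passed in wild-type cells, where 1.16% of all 14006 genes tested did. Dropping the minimum fold and taking an adjusted p under 0.05, it was again 0 of 9, against 4.56% of all genes. The log2 fold changes of the members ran from −0.30 to 0.26 with a median of −0.06, and the median over all genes was 0.03. In ΔCdk8 cells 0 of 9 passed and 0.0% of 14832 genes did. Of all genes 392 (2.64%) had an unadjusted p under 0.05, and DESeq2 called 36 (0.243%). There the members ran from −0.18 to 0.17, with a median of −0.05 beside 0.01 over all genes. With the wild-type number or clone as a block in the fit, the share of all genes that passed was 3.95% for wild-type and 1.4% for ΔCdk8 libraries, and still 0 members passed in either.

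**Figure D2:**
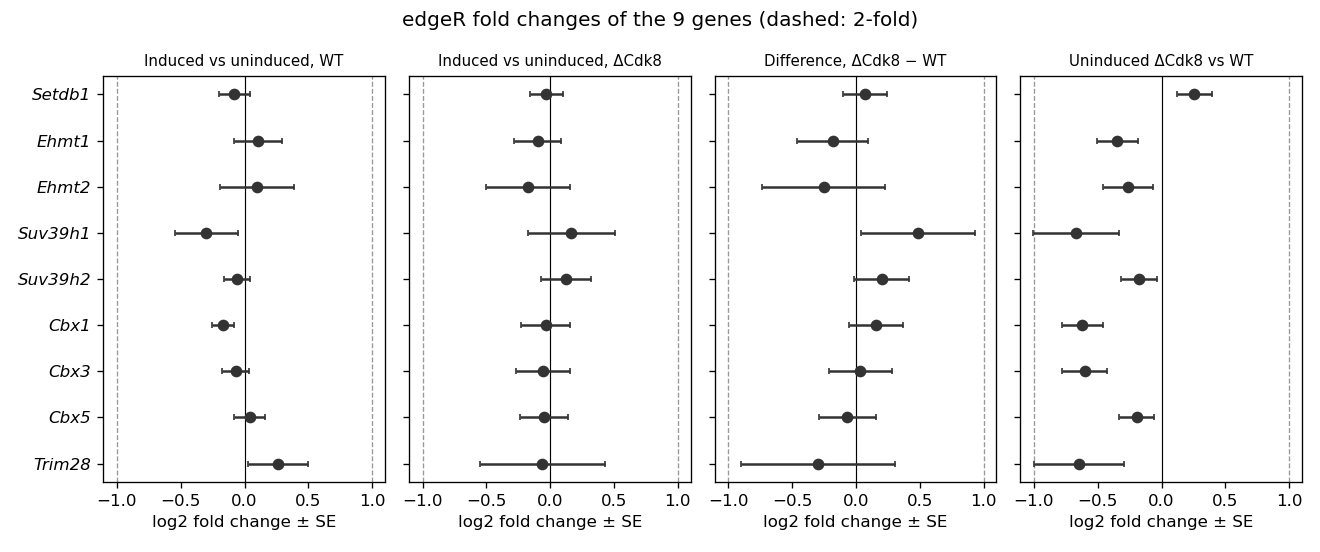
Log2 fold changes of the 9 members (points) with SEs (bars) from edgeR, for induction in wild-type cells, induction in ΔCdk8 cells, the difference of these, and uninduced ΔCdk8 against wild-type cells; dashed lines mark 2-fold. All points lie inside the dashed lines, and in the last panel 8 of 9 lie below 0. The fits are without the block.

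Suv39h1 was the member on which Xist could act in cis. Its uninduced level was 15.4, 23.4 and 31.0 TPM in wild-type numbers 1, 2 and 3, and its induced level was 16.8, 18.2 and 19.8 TPM. The groups overlapped, since number 1 was lower before induction than any sample after it. On counts this was −0.30 in log2 fold change (standard error, SE, 0.25, adjusted p = 0.542). With the block it was −0.25 (SE 0.13, adjusted p = 0.211). Without the block it was −0.48 with an adjusted p of 0.0476 when number 1 was left out, and −0.16 when number 3 was. In clones 8, 11 and 15 the level was 16.7, 8.45 and 25.1 TPM uninduced and 19.9, 10.7 and 24.6 TPM induced. The clones kept their order, with clone 11 lowest and clone 15 highest in both states. On counts the log2 fold change in clones was 0.17 (SE 0.34), and 0.19 (SE 0.09, adjusted p = 0.198) with the block.

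Dividing the induced by the uninduced TPM of the same wild-type number or clone gives residual expression. For Suv39h1 it was 1.09, 0.777 and 0.639 in wild-type numbers 1, 2 and 3 (0.836±0.232, n = 3), and 1.19, 1.27 and 0.979 in clones 8, 11 and 15 (1.15±0.15, n = 3). The difference of 0.310 did not stand out from the spread (two-sided exact permutation test, p = 0.2, where 0.1 is the smallest p that 3 against 3 can give). The test of the difference in induction on counts gave a log2 value of 0.49 (SE 0.45, adjusted p = 1.0), and 0.46 (SE 0.17, adjusted p = 0.142) with the block.

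Suv39h1 kept more of its expression than most X-linked genes did. For X-linked genes the median of this ratio was 0.342, 0.328 and 0.272 in wild-type numbers 1, 2 and 3, and 0.569, 0.608 and 0.591 in clones 8, 11 and 15. Of 428 X-linked genes 8 lay above Suv39h1 in number 1, 52 of 426 did in number 2 and 56 of 427 in number 3. Ranked by the mean of the 3 samples, 32 of 426 X-linked genes lay above it in wild-type and 3 of 445 in ΔCdk8 cells. In the count test 27.7% of 480 X-linked genes fell past the threshold in wild-type cells, and 52.3% did with the block. Suv39h1 was not among them in either fit. In ΔCdk8 cells 0.0% of 531 X-linked genes fell past it, and 24.1% did with the block. It was also not alone in keeping more than 0.5 of its expression in every wild-type sample, as 77 of 426 X-linked genes (18.1%) did. In every clone 228 of 445 (51.2%) did.

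The genes around Suv39h1 varied. Of the 6 nearest X-linked genes with a mean of at least 1 TPM, Was, a regulator of actin in blood cells that lies 6693 bp away, had a residual expression of 0.720±0.104 in wild-type cells. Wdr13 had 1.33±0.216 and the RNA-binding protein gene Rbm3 0.740±0.129, while Glod5 had 0.399±0.148. The mean of each of these 6 genes was above 0.314, the mean of the X-linked medians in wild-type cells. The wider H3K9 list has a further pair of X-linked genes, Atrx, a remodeller that deposits histone H3.3 in heterochromatin, and Phf8, an H3K9 demethylase. Atrx had a residual expression of 0.788±0.0969 in wild-type and 0.997±0.127 in ΔCdk8 cells, with 39 of 426 and 10 of 445 X-linked genes above it. Phf8 had 0.662±0.00768 and 0.755±0.0707, with 62 and 86 genes above it.

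**Figure D3:**
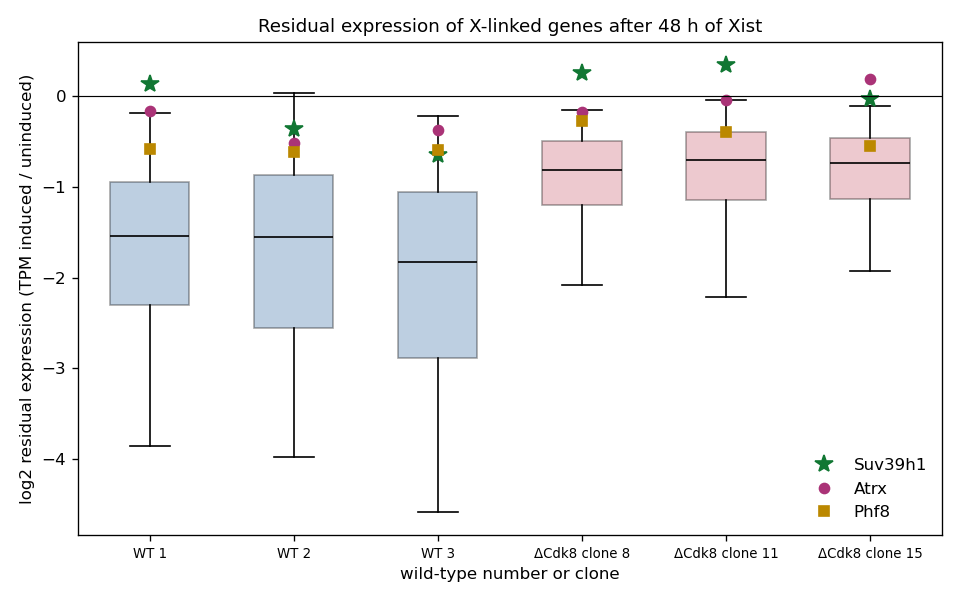
Log2 residual expression (TPM induced over uninduced, vertical axis) of X-linked genes with a mean uninduced TPM of at least 1, per wild-type number and ΔCdk8 clone (horizontal axis); boxes show quartiles and median, whiskers the 5th and 95th percentiles of genes with a value above 0, and symbols Suv39h1, Atrx and Phf8. Suv39h1 and Atrx lie above the box in all 6 pairs, and Suv39h1 lies above 0, the line of unaltered expression, in wild-type number 1 and clones 8 and 11.

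None of the autosomal methyltransferases passed the test on induction. Setdb1 had a residual expression of 0.930±0.115 in wild-type and 0.957±0.0587 in ΔCdk8 cells. Suv39h2, the autosomal paralogue of Suv39h1, had 0.946±0.0838 and 1.06±0.135. Ehmt1 had 0.931, 1.01 and 1.19 in wild-type numbers 1, 2 and 3, and 0.875, 0.926 and 0.910 in clones 8, 11 and 15. For Ehmt2 the wild-type samples disagreed. Its level went from 119 to 70.8 TPM in number 1, from 121 to 158 in number 2 and from 111 to 138 in number 3, a residual expression of 0.595, 1.30 and 1.24. Clone 15 had the other low induced value of Ehmt2, 61.4 TPM after 88.4 TPM uninduced. These induced libraries, number 1 and clone 15, had 6.59% and 7.25% of gene reads on introns, against 5.85% and 5.42% in induced numbers 2 and 3. Induced clone 8 had the highest share, 7.59%, with Ehmt2 at 106 TPM, and induced clone 11 had 5.38% with 113 TPM. The part of the intron share in the Ehmt2 values was not tested. The log2 fold change of Ehmt2 in wild-type cells, 0.10 (SE 0.29), had the opposite sign without number 2 (−0.13) or number 3 (−0.07), and was 0.36 with an adjusted p of 0.0332 without number 1.

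Among the HP1 readers, Cbx1 was the one member whose wild-type libraries separated by induction. Its levels were 240, 234 and 231 TPM uninduced and 206, 209 and 201 TPM induced, a residual expression of 0.856, 0.896 and 0.872. In all, 14.2% of genes tested had wild-type ranges that were lower after induction without overlap, so that 1 of 9 members is near the background. Its log2 fold change came to −0.17 (SE 0.09, adjusted p = 0.315), and to −0.17 (SE 0.07, adjusted p = 0.116) with the block. In clones 8, 11 and 15 the residual expression of Cbx1 was 0.930, 0.920 and 1.05, and the ranges overlapped. Cbx3 was at 635, 516 and 480 TPM in induced wild-type cells, above its uninduced level in number 1 and below it in numbers 2 and 3. Cbx5 had a residual expression of 1.01±0.0433 in wild-type and 0.950±0.142 in ΔCdk8 cells.

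Trim28 showed opposite signs in the genotypes. Its level in wild-type numbers 1, 2 and 3 was 1288, 1803 and 1678 TPM uninduced and 1314, 2161 and 2091 TPM induced. In clones 8, 11 and 15 it was 875, 1647 and 777 TPM uninduced and 847, 1589 and 681 TPM induced. Every wild-type pair was above 1 in residual expression (1.02, 1.20 and 1.25) and every clone below 1 (0.968, 0.964 and 0.876), an opposite movement that 3.35% of 12017 genes showed. The difference in induction did not pass. In log2 it was −0.30 (SE 0.61, adjusted p = 1.0), and −0.28 (SE 0.12, adjusted p = 0.182) with the block. Of the difference in induction in general, 0 of 9 members passed, beside 0.0% of 15137 genes and 0.998% with the block. Without it 587 genes (3.88%) had an unadjusted p under 0.05, and DESeq2 called 33 (0.218%).

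The larger differences lay between the genotypes in uninduced conditions. Here 8 of 9 members had a negative log2 fold change (ΔCdk8 over wild type), and their median was −0.35, beside 0.03 over all genes. None passed the threshold, as 0.0% of 14646 genes did with edgeR, although 2982 genes had an unadjusted p under 0.05 and DESeq2 called 386 (2.64%). Cbx1 and Cbx3 were the members with an unadjusted p under 0.05, as 20.4% of all genes had. With no minimum fold, DESeq2 gave these members, and 3.41% of genes in that direction, an adjusted p under 0.05.

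Cbx1 had 159, 185 and 158 TPM in uninduced clones 8, 11 and 15, all below the lowest uninduced wild-type value of 231 TPM. Its log2 fold change came to −0.62 (SE 0.16, adjusted p = 0.148 with edgeR and 0.0163 with DESeq2). Cbx3 had 482, 436 and 350 TPM in the clones and 574, 591 and 583 TPM in wild-type cells, again without overlap (log2 fold change −0.60, SE 0.18, adjusted p = 0.166 with edgeR and 0.0407 with DESeq2). Of all genes tested, 6.79% had uninduced ranges lower in ΔCdk8 cells without overlap. Between 21.8% and 26.9% of the exon reads of Cbx3 also matched elsewhere. On uniquely mapped exon reads alone Cbx3 stayed apart, at 401, 419 and 407 CPM (reads scaled by library size) in wild-type cells and 332, 316 and 231 in the clones. Cbx5, in contrast, had 121, 121 and 149 TPM in the clones, overlapping the wild-type range of 119 to 142 TPM (log2 fold change −0.20, SE 0.14).

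The summed level of the 3 HP1 genes was 951±6.75 TPM in uninduced wild-type cells (943 to 956) and 721±55.8 TPM in uninduced ΔCdk8 cells (657 to 763). After induction it was 884±91.0 and 684±17.6 TPM. Cbx3 made up most of the sum in both genotypes, 61.3%±1.29 in uninduced wild-type and 58.4%±4.95 in uninduced ΔCdk8 libraries. The share of Cbx5 was 14.1%±1.26 and 18.3%±3.80.

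Setdb1 was the member with a higher level in ΔCdk8 cells. Uninduced clones 8, 11 and 15 had 143, 119 and 151 TPM, and wild-type numbers 1, 2 and 3 had 90.8, 107 and 113 TPM. The ranges did not overlap, as was so in this direction for 16.3% of genes. Its log2 fold change came to 0.26 (SE 0.14, adjusted p = 0.307), and to 0.16 without wild-type number 1. Ehmt1 was at 42.6, 48.1 and 42.3 TPM in the clones (log2 fold change −0.35, SE 0.16), and overlapped with wild-type number 1 at 44.9 TPM. For Ehmt2 clone 15, at 88.4 TPM, was below the wild-type range of 111 to 121 TPM, and clones 8 and 11, at 118 and 119 TPM, were within it. For Suv39h2 the clones at 25.8, 24.4 and 33.2 TPM lay on either side of the wild-type value.

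Trim28 split the clones. Clones 8 and 15, at 875 and 777 TPM, had a ratio to the wild-type mean of 0.551 and 0.489, while clone 11 had 1.04. The share of a library's gene reads on introns was 6.87% in uninduced clone 8, 5.73% in clone 15 and 5.39% in clone 11. After induction it was 7.59%, 7.25% and 5.38%. Wild-type cells had 4.77% to 5.54% uninduced and 5.42% to 6.59% induced. The part of this share in the Trim28 difference was not tested. Over the 3 clones its log2 fold change came to −0.65 (SE 0.35, adjusted p = 0.319), and it ranged from −1.19 to −0.40 when single samples were left out, with −1.19 (adjusted p = 0.0274) reached without clone 11. Zbtb45 overlaps Trim28 on the other strand. Suv39h1 split them the other way. Clone 11 had a ratio of 0.364, clone 8 of 0.721 and clone 15 of 1.08 (log2 fold change −0.67, SE 0.34, adjusted p = 0.290). The value was −0.44 without clone 11 and also without wild-type number 3. The highest clone exceeded the lowest 2.97-fold for Suv39h1 and 2.12-fold for Trim28 in uninduced conditions, and 2.29-fold and 2.33-fold in induced conditions. For Cbx1 the same ratio was 1.17 uninduced and 1.15 induced.

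Whole chromosomes also stood apart in the clones, and touched Setdb1 and Cbx3. For each expressed gene, TPM in an uninduced clone was divided by the uninduced wild-type mean, and chromosome medians were set relative to the autosomal median. Chromosome 3, which carries Setdb1, had a median of 1.42 in clone 8 and 1.56 in clone 15, but 0.991 in clone 11. On the same scale Setdb1 had 1.26, 1.27 and 1.17 in clones 8, 15 and 11, and the 204 expressed genes within 10 Mb of it had medians of 1.51, 1.49 and 1.05. Relative to these neighbours Setdb1 was at 0.838, 0.854 and 1.12 in clones 8, 15 and 11, a mean of 0.936±0.156 (n = 3), below its neighbours in clones 8 and 15 and above them in clone 11. Chromosome 6, which carries Cbx3, had a median of 0.680 in clone 11, 0.904 in clone 15 and 0.995 in clone 8. Relative to its 71 neighbours Cbx3 was at 0.765, 1.09 and 0.645 in clones 8, 11 and 15, a mean of 0.835±0.233 (n = 3). The surrounding genes shared the low level of clone 11, while Cbx3 was lower than its neighbours in clones 8 and 15. DNA copy number was not measured here.

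Around Cbx1 and Suv39h1 the chromosome did not stand apart, and around Trim28 it did less so. The 238 neighbours of Cbx1 on chromosome 11 had medians of 0.976 to 1.02 in the 3 clones, and Cbx1 was at 0.608, 0.790 and 0.601 relative to them. The neighbours of Trim28 on chromosome 7 had 0.958 in clone 8, 1.03 in clone 11 and 0.818 in clone 15, with Trim28 at 0.525, 1.02 and 0.522 relative to them. The 50 neighbours of Suv39h1 had medians of 0.994 to 1.02, and Suv39h1 was at 0.646, 0.365 and 0.949 in clones 8, 11 and 15 relative to them.

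**Figure D4:**
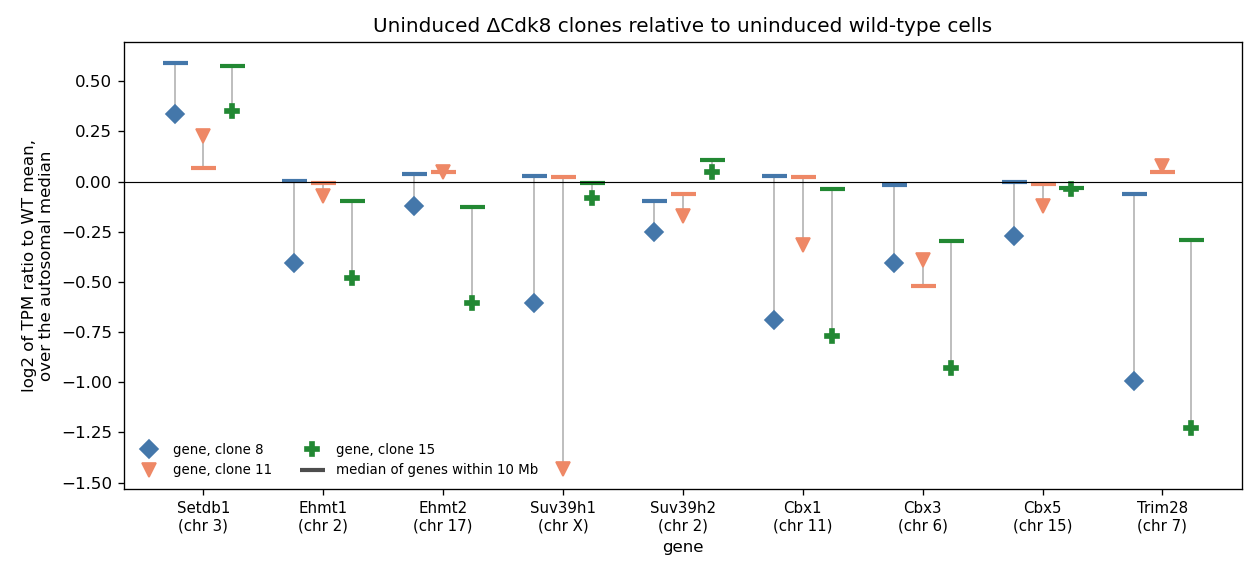
Log2 ratio of TPM in each uninduced ΔCdk8 clone to the uninduced wild-type mean, relative to the autosomal median (vertical axis), for each member (symbols) and for expressed genes within 10 Mb on its chromosome (short bars, median). The bars of Setdb1 in clones 8 and 15 lie above its symbols, and those of Cbx1 and Trim28 in clone 8 lie near 0 while the symbols lie below.

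Over the 12 libraries, members varied together to different degrees. The Pearson correlation of log2(TPM + 1) was 0.83 between Cbx1 and Cbx3 and 0.87 between Ehmt1 and Trim28, and it was −0.80 between Setdb1 and Trim28. These values describe 12 libraries from 3 clones and 1 parental line, whose groups they also reflect. Among 9596 genes with a mean of at least 5 TPM, those most like Suv39h1 were Cnn2 (r = 0.97), which encodes a calponin, Sept3 (r = 0.94), which encodes a septin, and Aif1l (r = 0.94).

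A wider list of 48 genes of the pathway covered other writers and their cofactors, demethylases, the HUSH complex, TIF1 and KRAB zinc finger proteins, HP1 partners and heterochromatin remodellers. None passed the threshold in any of the 4 comparisons, with or without the block in the induction comparisons. In wild-type cells 2 of the 47 tested genes had an adjusted p under 0.05 after induction, both higher, beside 1.79% of all genes. They were Zfp57, a KRAB zinc finger protein that maintains methylation at imprinted loci (log2 fold change 0.96, SE 0.19, adjusted p = 0.0402), and Kmt5c, an H4K20 methyltransferase that acts downstream of HP1 (0.96, SE 0.16, adjusted p = 0.0265). Zfp57 went from 154, 142 and 101 TPM to 287, 257 and 206 TPM in wild-type numbers 1, 2 and 3. With the block 7 genes were higher and 5 lower at that level, beside 12.2% and 10.8% of all genes. Phf8 (−0.58, adjusted p = 0.00584) and Atrx (−0.31, adjusted p = 0.0329) were among the lower ones. The value furthest from 0 was that of Trim66, a TIF1 family gene (−1.08, adjusted p = 0.246), which had at most 240 reads per library.

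In ΔCdk8 cells 0 of the 48 had an adjusted p under 0.05 without the block. With it 3 were higher and 4 lower, beside 5.6% and 6.16% of all genes, and Kdm4b, an H3K9 demethylase, was the furthest from 0 among them (−0.66, SE 0.11, adjusted p = 0.000499), with 24.1, 18.9 and 18.2 TPM uninduced and 13.0, 16.5 and 9.31 TPM induced in clones 8, 11 and 15. Zfp57 (0.53, adjusted p = 0.000274) was higher in ΔCdk8 cells too under the block, at 206, 243 and 181 TPM uninduced and 313, 285 and 289 TPM induced. So were Kmt5c (0.49, adjusted p = 0.000334) and Kdm3b (0.29, adjusted p = 0.0115), and Phf8 (−0.38, adjusted p = 0.00858), Kdm4c (−0.56, adjusted p = 8.11e-05) and Lrif1 (−0.61, adjusted p = 0.00323) were the other lower ones. For the difference in induction the values furthest from 0 were those of Kdm4d (1.59) and Kdm3a (−1.04), both demethylases and both with an adjusted p over 0.05 without the block. Between the uninduced genotypes the median over the 48 genes was −0.22, with 27 negative and 21 positive, beside 7010 and 7636 of all genes. The largest values there were those of Kdm4d (2.54, adjusted p = 0.145), with at most 58 reads in a library, and of Prdm16 (1.10, adjusted p = 0.176), at 3.66, 1.96 and 1.69 TPM in the clones and 0.907 to 1.22 TPM in wild-type cells. The value of Kdm4d came from reads outside its exons. Total gene reads were 5, 2 and 4 in wild-type cells and 44, 14 and 32 in clones 8, 11 and 15, but exon reads were 4, 2 and 4 and 6, 0 and 6, and mean TPM was 0.0740 and 0.0744.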

How the data were processed

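Polyadenylated RNA of 12 HATX3 libraries was sequenced, and the authors aligned untrimmed reads to Ensembl GRCm38 in CLC Genomics Workbench. They deposited raw read counts for each gene, its exons and its introns, and total gene reads were tested. The authors' TPM values matched exon reads divided by exon length when checked. Their RPKM values were not used, and the deposited fraction columns (unique exon reads, intron reads) were used only to describe genes and libraries. Whether counting used strand is not given in the sources used here. Setdb1, Ehmt1, Suv39h2 and Trim28 overlap other annotated genes.

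Groups came from sample titles. edgeR 4.0.16 in R 4.3.3 (TMM, filterByExpr set to 10 reads and a total of 15, quasi-likelihood F test, Benjamini-Hochberg over all genes) was the test, at a fold above 2 and adjusted p under 0.01. Tests are two-sided. DESeq2 1.42.0, other normalizations, filters and counts, all 12 libraries in 1 fit, the replicate block and leaving out samples were alternatives. Residual expression and correlations used Python 3.11.15, pandas 2.3.3 and scipy 1.17.1. Division by genes within 10 Mb was chosen after seeing the data. The scripts were tested on simulated counts.

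Libraries of the same clone are the same line. Deviations from group means correlated at 0.836 to 0.900 within a clone and 0.540 to 0.672 within a wild-type number. Between numbers or clones they reached at most 0.379, so residual expression and the block took these as pairs. The main edgeR fits did not. Common dispersion was 0.0857 without and 0.0203 with the block for wild-type induction, and 0.142 and 0.00766 for ΔCdk8 induction.

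The members and lists were chosen with earlier results of these data known. Named are the members, Cdk8, markers, the 3 genes most like Suv39h1 and, of the wider list, X-linked genes, genes past the threshold and the 2 largest changes per comparison. Kmt5c, Uhrf2, Kdm3b, Kdm4c, Lrif1 and the neighbours of Suv39h1 were named after their values were seen. Adnp, with at most 10.7% unique exon reads, is not described.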

Additional observations from a re-analysis of the deposited data

Results flagged for a closer look

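Trim28 was flagged because every wild-type pair and every clone moved in opposite directions on induction. Its mean residual expression in wild-type cells was 1.155±0.119 (n = 3), and in ΔCdk8 cells it was 0.936±0.0519 (n = 3). The difference did not pass as an interaction, with an adjusted p of 1.0 without and 0.182 with the block (edgeR), and 3.35% of 12017 genes moved oppositely in this way.

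Of the wider list, 2 genes had an interaction of genotype and induction with an adjusted p under 0.05 when the wild-type number or clone was a block. Kdm3a, an H3K9 demethylase, had a log2 difference of −1.016 (SE 0.23, adjusted p = 0.0326 with the block and 0.596 without). Its TPM went from 96.5, 112 and 83.3 to 123, 192 and 194 in wild-type numbers 1, 2 and 3, and from 87.2, 67.8 and 84.7 to 55.2, 64.4 and 77.6 in clones 8, 11 and 15. The direction was opposite in every pair. Uhrf2, a relative of the DNA methylation factor Uhrf1, had a log2 difference of 0.517 (SE 0.12, adjusted p = 0.0309 with the block and 1.0 without). Its residual expression in wild-type cells was 0.677±0.105 and in ΔCdk8 cells 0.979±0.0699 (n = 3 each). In all, 6.01% of genes had such an adjusted p under 0.05 with the block.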

How the results depend on the processing

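For the members, 0 of 9 passed the fold change and adjusted p threshold in each of the 4 comparisons under every alternative run. Single members reached an adjusted p under 0.05 with edgeR when a wild-type number or a clone was left out. On induction these were Ehmt2, Suv39h1 and Trim28 (0.31, adjusted p = 0.0233) without both libraries of wild-type number 1. Between uninduced genotypes they were Cbx1 (−0.80, adjusted p = 0.0252) and Trim28 without clone 11. The share of all genes at that level in these fits is not given here. These values are therefore not read as a result about the members. The cause was not tested. With the replicate block the counts of members and of the wider list past the threshold were 0 in the induction comparisons and in their difference. It changed no call of a member. It did change calls of X-linked genes, of all genes and, at an adjusted p under 0.05, of the wider list, as given beside those results. With the mean of uninduced libraries in place of the pairing, the difference of Suv39h1 residual expression was 0.313, and it was 0.211 to 0.438 when single samples were left out. At an adjusted p under 0.05 without the fold change minimum, edgeR had 2 of 47 wider-list genes higher after induction in wild-type cells. Of all genes 1.79% were. With DESeq2 4 were higher and 2 lower, beside 6.0% and 7.14% of all genes. Between uninduced genotypes DESeq2 had 3 of 48 higher and 1 lower, beside 5.51% and 3.41%. Over genes of at least 5 TPM, X-linked median residual expression in wild-type cells was 0.353 and in ΔCdk8 cells 0.627. Signs of values near 0 reversed when single samples were left out. In wild-type cells Ehmt1 ranged from −0.050 to 0.16, Ehmt2 from −0.13 to 0.36 and Cbx5 from −0.0013 to 0.040. In ΔCdk8 cells Suv39h2 ranged from −0.0023 to 0.16 and Cbx5 from −0.16 to 0.037. The difference in induction ranged from −0.016 to 0.13 for Setdb1 and from −0.030 to 0.14 for Cbx3. Relative to genes within 10 Mb, an alternative added after seeing the data, Setdb1 was at −0.11 in uninduced ΔCdk8 cells (mean log2 ratio) instead of 0.26, and Cbx3 at −0.30 instead of −0.60. Depth limits the genes with few reads, such as Kdm4d and Trim66, whose counts fell to 1 and 6 reads in a library.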
